A study of Mus musculus with 18 samples.

Results

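The genes described here are 10 CC chemokine ligands, *Ccl2*, *Ccl3*, *Ccl4*, *Ccl5*, *Ccl6*, *Ccl7*, *Ccl8*, *Ccl9*, *Ccl12* and *Ccl22*. They were taken by gene name from a deposited RNA-seq table of 20615 genes, a choice made with earlier results of these data known. Counts of them beside the share of all genes are therefore descriptions. All 10 passed the filter on low counts that left 15789 genes for testing. The RNA came from bone marrow-derived macrophages (BMDMs), macrophages that differentiate in a dish from marrow progenitors, here fed L929 supernatant as the source of M-CSF. The donors were female mice aged 7 to 12 weeks of the strains C57BL/6 (B6) and C57BL/6.NOD-*Aec1Aec2* (SjSS), a model of Sjögren's syndrome that carries the NOD intervals *Aec1* (*Idd3*, chromosome 3) and *Aec2* (*Idd5*, chromosome 1) on the B6 background. For each strain there were 3 control samples without treatment, 3 with apoptotic cells (AC) and 3 with CpG, a DNA oligonucleotide that TLR9 senses, at 1 µM for 6 h, 6 groups in all. The ACs were thymocytes killed with dexamethasone, added at 5 per BMDM for 2 h, and the BMDMs were then washed and kept for 3 h by the labels or 4 h by the study's methods. BMDMs came from 3 mice per strain, and neither the strain of the thymocytes in each sample nor whether same-numbered samples share a mouse is stated, so that p values measure the spread between these samples. The comparison of AC with control was made to ask how SjSS and B6 BMDMs respond to ACs, with CpG as another inflammatory stimulus.

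CC chemokines are small secreted proteins with a pair of adjacent cysteines that bind receptors of the CCR family on leukocytes and draw those cells along a gradient. *Ccl2*, *Ccl7*, *Ccl8* and *Ccl12* code for monocyte chemoattractant proteins, of which CCL2, CCL7 and CCL12 act on CCR2 of monocytes. *Ccl3*, *Ccl4* and *Ccl5* code for the macrophage inflammatory proteins and RANTES, which attract monocytes, T cells and NK cells, *Ccl6* and *Ccl9* code for CCR1 ligands that mouse macrophages make in culture, and *Ccl22* codes for a ligand of CCR4. Macrophages transcribe many of these genes through NF-κB, AP-1, C/EBP and interferon-responsive factors after Toll-like receptor stimulation.

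In GRCm38 (mm10) 9 of the genes lie on chromosome 11 in 2 clusters that are 1408978 bases apart, and *Ccl22* lies on chromosome 8 (94745590 to 94751699, + strand), so that none is on the chromosomes of the NOD intervals named above. The first cluster holds *Ccl2* (82035571 to 82037453, + strand), *Ccl7* (82045712 to 82047525, + strand), *Ccl12* (82101845 to 82103400, + strand) and *Ccl8* (82115185 to 82116799, + strand). The second holds *Ccl5* (83525778 to 83530518, − strand), *Ccl9* (83572919 to 83578636, − strand), *Ccl6* (83587882 to 83593087, − strand), *Ccl3* (83647844 to 83649355, − strand) and *Ccl4* (83662584 to 83664683, + strand). All 10 are protein-coding genes, with 2 to 5 merged exons each. *Ccl2* and *Ccl6* overlap antisense genes (*Gm17268* and *E230016K23Rik*) by their gene spans but share 0 exon bases with them, and *E230016K23Rik* had 0 to 9 counts per library. The upstream sequences of neighbours whose responses differed are given, *Ccl12* and *Ccl8* in the first cluster and *Ccl9* and *Ccl6* in the second, with that of *Ccl3*, the gene with the most RNA per kb in CpG treated BMDMs. *Ccl2*, *Ccl4*, *Ccl5* and *Ccl7* were not matched in the promoter table used here. The sequences are RefSeq's (GRCm38.p6), read 5′ to 3′ on the strand of the gene, and cover the 250 bases before the RefSeq start. Capitals mark matches on either strand to any of 4 motifs that were searched. These were the κB letters (GGG and CC with any 5 bases between them), the ISRE core (GAAA and GAAA with any 2 bases between them), the AP-1 letters (TGANTCA) and the C/EBP letters (TTNNGNAA).
Ccl12, chr11:82101595-82101844, + strand: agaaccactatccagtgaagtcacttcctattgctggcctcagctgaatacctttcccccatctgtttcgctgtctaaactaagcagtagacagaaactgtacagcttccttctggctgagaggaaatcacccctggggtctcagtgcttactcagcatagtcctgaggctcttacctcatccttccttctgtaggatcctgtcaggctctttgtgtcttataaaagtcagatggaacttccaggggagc
Ccl8, chr11:82114935-82115184, + strand: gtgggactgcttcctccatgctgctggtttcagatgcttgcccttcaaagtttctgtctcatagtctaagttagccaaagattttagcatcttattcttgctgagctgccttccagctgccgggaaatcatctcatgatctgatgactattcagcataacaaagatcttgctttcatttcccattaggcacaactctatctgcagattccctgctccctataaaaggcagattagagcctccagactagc
Ccl9, chr11:83578637-83578886, − strand: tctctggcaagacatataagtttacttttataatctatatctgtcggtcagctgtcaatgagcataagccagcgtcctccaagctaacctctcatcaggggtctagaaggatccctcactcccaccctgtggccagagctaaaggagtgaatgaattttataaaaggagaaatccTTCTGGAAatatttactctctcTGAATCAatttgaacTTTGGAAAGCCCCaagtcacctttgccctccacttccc
Ccl6, chr11:83593088-83593337, − strand: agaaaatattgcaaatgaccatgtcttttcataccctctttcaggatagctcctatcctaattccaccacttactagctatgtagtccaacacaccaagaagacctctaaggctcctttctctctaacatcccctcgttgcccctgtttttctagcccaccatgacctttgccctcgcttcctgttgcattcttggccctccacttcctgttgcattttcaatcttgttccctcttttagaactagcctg
Ccl3, chr11:83649379-83649628, − strand: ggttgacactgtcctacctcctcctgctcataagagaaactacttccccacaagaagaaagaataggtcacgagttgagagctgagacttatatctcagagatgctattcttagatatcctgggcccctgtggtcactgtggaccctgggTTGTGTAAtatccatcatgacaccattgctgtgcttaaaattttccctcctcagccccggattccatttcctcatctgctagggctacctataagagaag
The *Ccl9* window held 1 κB match 35 to 26 bases before the start, overlapping 1 of its 2 C/EBP matches (38 to 31 and 75 to 68 bases before the start), and 1 AP-1 match 53 to 47 bases before it. *Ccl3* held 1 C/EBP match, 100 to 93 bases before the start, and the windows of *Ccl6*, *Ccl8* and *Ccl12* held none of the 4 motifs. The window of *Ccl22*, which is not printed, held 2 κB matches, 162 to 153 and 131 to 122 bases before the RefSeq start. Of 32817 mouse promoter windows of the same length, 45.8% held the κB letters, 36.8% the C/EBP letters, 6.75% the AP-1 letters and 2.97% the ISRE core, so these matches are descriptions of the letters only. *Ccl12* and *Ccl8*, whose genes are 11784 bases apart, were 57.5% identical over the window in a global alignment (match 1, mismatch -1, gap -2), against 46.8% to 53.7% for the other 9 pairs of the 5 windows.

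Libraries held 30688336 to 57139662 counts (median 47912526), and levels are given as CPM, the count scaled to a common library total by TMM, as mean ± SD of 3 samples where a ± is shown. Summed markers of macrophages (8 of 8 genes, *Adgre1*, *Csf1r* and *Lyz2* among them) were at 15105 to 23748 CPM in all 18 libraries. Single markers did change, with *Fcgr1* and *Cd14* called higher with ACs in SjSS and *Fcgr1* in the AC interaction. None was called with ACs in B6. *Adgre1* and *Cd14* were called higher with CpG in B6, and *Cd14* higher and *Mertk* lower with CpG in SjSS. T lineage markers, 14 of 16 in the table, summed to 0.528 to 0.586 CPM in the controls of B6 and 0.384 to 0.755 in those of SjSS, and with ACs to 1.49 to 1.98 and 1.73 to 2.12 CPM, and with CpG to 0.847 to 1.5 and 0.865 to 1.37 CPM, with *Trac*, *Rag1* and *Dntt* at 0 in control B6. Dendritic cell markers, 5 of 6 in the table and mostly *Fscn1*, summed to 5.65 to 14.4 CPM in the controls of B6 and 13.6 to 16.2 in those of SjSS, and with ACs to 11.4 to 13.3 and 28.7 to 30.7 CPM. In CpG treated BMDMs that sum was 29.6 to 39.6 CPM in B6 and 25.1 to 31.5 in SjSS. Neutrophil markers, 3 of 6 in the table, summed to 0.146 to 0.512 CPM in the controls of B6 and 0 to 0.0725 in those of SjSS, with ACs to 0.111 to 0.179 and 0.233 to 0.628, and with CpG to 1.14 to 2.74 and 0.988 to 1.16 CPM. *Camp*, which had 0 counts in the controls of SjSS and 9 to 18 per library with ACs, was called higher in the AC response of SjSS and in the AC interaction, as most of the ligands were. The 2 T lineage markers that could be tested, *Cd247* and *Lck*, were also called higher with ACs in SjSS, and *Cd247* in the AC interaction. Neither was called with ACs in B6. Of 4 dendritic cell markers tested, *Xcr1* was called higher with ACs in both strains and in the AC interaction, and no other was. These calls were not particular to ACs, as *Camp*, *Cd247* and *Xcr1* were also called higher with CpG in both strains. *Fscn1* was called higher with CpG in B6, and *Lck* was not called with CpG in either strain. B cell markers, 4 of 4 in the table, summed to 16.1 to 17.5 and 19.8 to 26.5 CPM in the controls of B6 and SjSS and to 8.97 to 14.8 CPM in the treated groups, and NK cell and mast cell markers to at most 1.75 CPM in any library. The part of these cells in the results was not tested, and in bulk RNA more cells of a type and more RNA per cell cannot be told apart.

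Most of the CC chemokine ligands rose with ACs in both strains, and the rise was larger in SjSS BMDMs. With ACs 7 of the 10 were called higher in B6 BMDMs and 9 of 10 in SjSS BMDMs, and none was called lower in either. *Ccl6* was lower with ACs in B6, at a size under the threshold for a call (log2 fold change -0.64). Calls needed both an adjusted p below 0.05 (edgeR's quasi-likelihood test, Benjamini-Hochberg adjustment over 15789 genes) and a log2 fold change beyond 1.3 in either direction, here the fold threshold. Of all genes tested 2.43% were called higher and 2.04% lower with ACs in B6, and 7.09% higher and 5.83% lower in SjSS. The median log2 fold change over the 10 genes was 1.72 in B6 and 4.33 in SjSS, beside 0.00 and -0.02 over all genes tested. The difference between the strains' AC responses was itself tested as an interaction, in which 8 of the 10 genes were called higher in SjSS, all but *Ccl6* and *Ccl9*, beside 4.76% of all genes called higher and 2.77% called lower. With CpG 6 of the 10 genes were called higher in B6 and 5 in SjSS BMDMs, and none was called lower. Of all genes 5.86% were called higher and 6.88% lower in B6, and 4.81% and 4.45% in SjSS. *Ccl6* was lower with CpG in both strains, at sizes under the fold threshold. In the interaction of strain and CpG 0 of the 10 were called at this threshold (0.285% of all genes called higher, 0.329% lower). At an unadjusted p that interaction gave 3 genes under 0.05, *Ccl3*, *Ccl4* and *Ccl5*, each with the smaller response in SjSS, where 9.22% of all genes passed that level in the same direction, and DESeq2 also called 0.

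**Figure D1:**
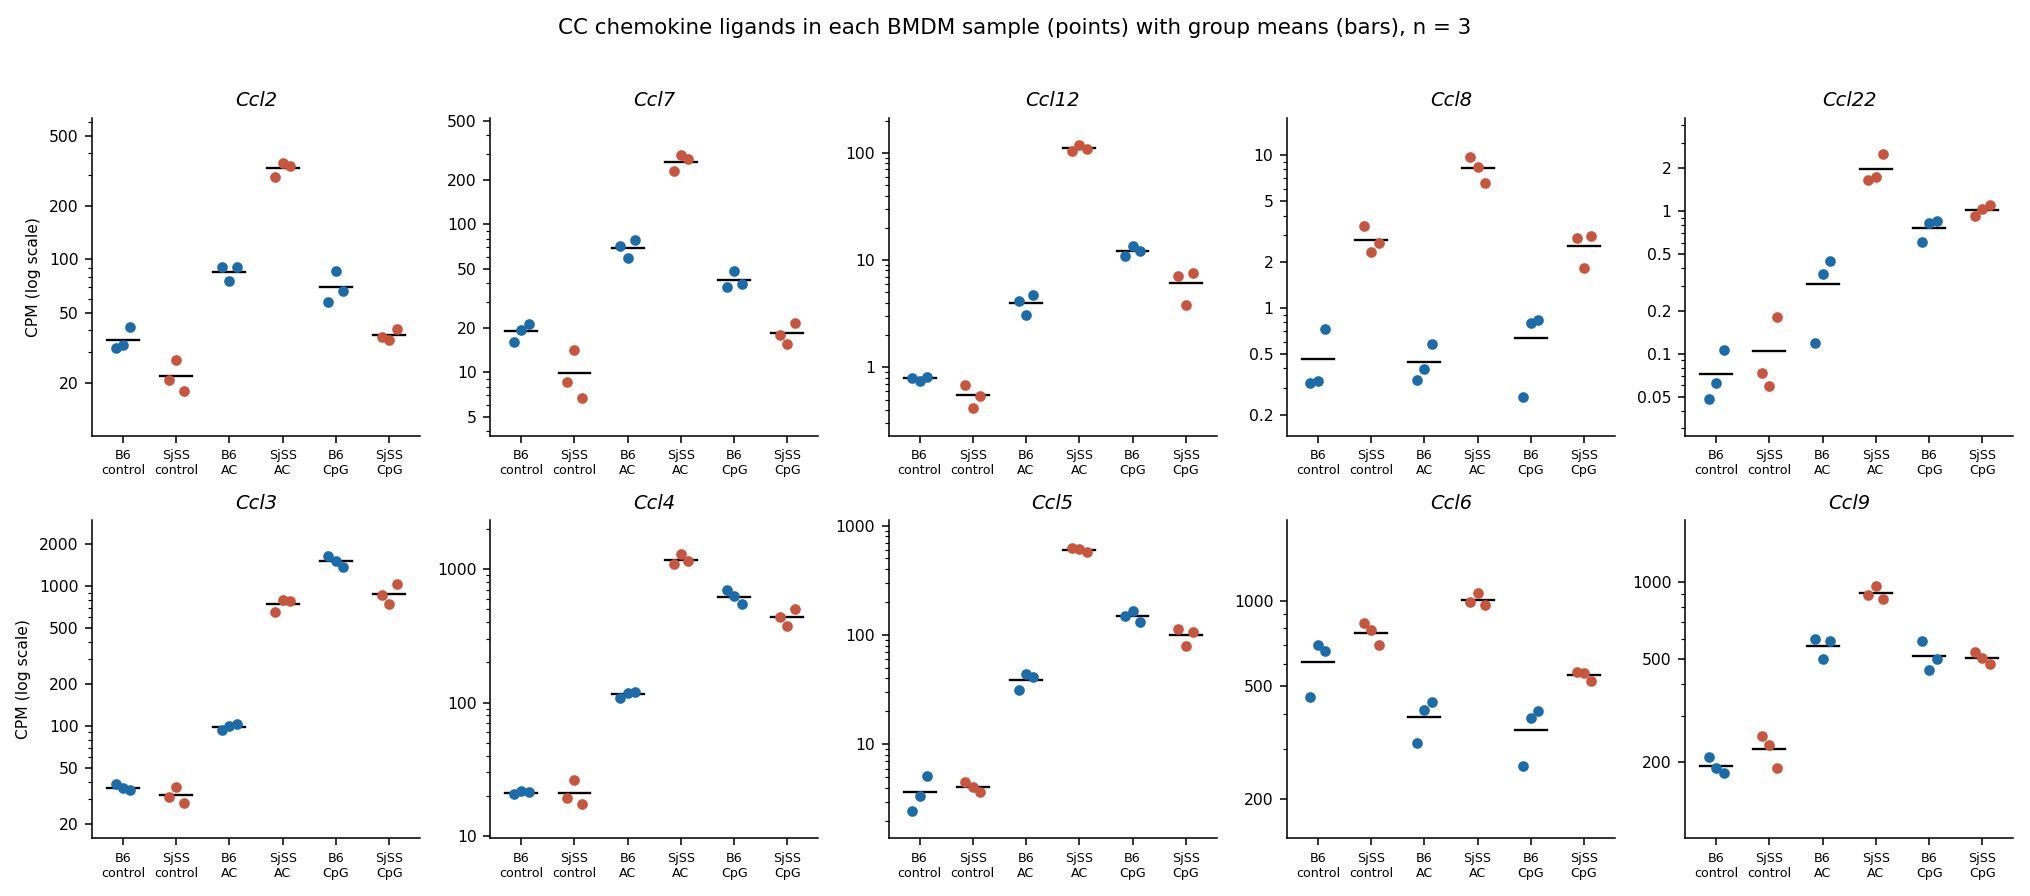
CPM of each CC chemokine ligand on a log axis, with 1 point per BMDM sample, a bar at the mean of the 3 samples of a group, and B6 in blue and SjSS in red. AC treated SjSS BMDMs hold the highest samples of 9 of the 10 genes, and for *Ccl3* the highest are the CpG treated B6 samples at 1364 to 1644 CPM.

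Among the ligands of CCR2, *Ccl7* and *Ccl2* rose with ACs in both strains, with the rise of *Ccl2* in B6 just under the fold threshold. Neither was called with CpG in either strain. *Ccl2*, the major attractant of CCR2 bearing monocytes, was at 31.5, 32.5 and 41.3 CPM in control B6 and at 20.7, 27.1 and 18.1 CPM in control SjSS BMDMs. With ACs it was at 90.3, 75.7 and 90.3 CPM in B6 and at 292, 354 and 340 CPM in SjSS. With CpG it was at 57.1, 86.5 and 66.0 CPM in B6 and at 36.4, 34.8 and 40.5 CPM in SjSS. No AC treated sample overlapped the controls of its strain, and every AC treated SjSS sample lay above every other sample. The AC response of *Ccl2* was a log2 fold change of 3.91 (SE 0.16, 15.1-fold, adjusted p = 1.67e-13, edgeR) in SjSS and 1.28 (SE 0.15, adjusted p = 1.46e-06, edgeR) in B6, the latter just under the fold threshold. Without control B6 sample 3 or without AC treated B6 sample 2 it passed, at 1.42 and 1.36. The interaction was 2.63 (SE 0.21, adjusted p = 1.30e-08, edgeR). The CpG responses of 0.99 in B6 and 0.77 in SjSS (adjusted p = 1.12e-05 and 0.000285, edgeR) did not pass the fold threshold.

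*Ccl7*, which lies 8258 bases from *Ccl2* and codes for another ligand of CCR2, had almost the same profile. It was at 16.0, 19.3 and 21.2 CPM in control B6 and 8.64, 14.2 and 6.71 CPM in control SjSS BMDMs. ACs brought it to 71.3, 59.2 and 77.9 CPM in B6 and to 227, 292 and 275 CPM in SjSS, and CpG to 37.7, 48.2 and 39.5 CPM in B6 and 17.8, 15.6 and 21.6 CPM in SjSS. The log2 fold change with ACs was 1.88 (SE 0.19) in B6 and 4.78 (SE 0.21) in SjSS, with an interaction of 2.90 (SE 0.27, adjusted p = 8.41e-08, edgeR). Over the 18 libraries, which share the 6 groups, the Pearson correlation of log2 CPM between *Ccl2* and *Ccl7* was 0.992, the highest among the pairs of the 10 genes. Without treatment the log2 fold changes of SjSS over B6 were -0.69 (SE 0.15, adjusted p = 0.00374, edgeR) for *Ccl2* and -0.97 (SE 0.20, adjusted p = 0.00225, edgeR) for *Ccl7*, both under the fold threshold. With CpG they were -0.91 (SE 0.15) and -1.19 (SE 0.19), also under it. With ACs both genes were called higher in SjSS, at 1.95 (SE 0.15) and 1.93 (SE 0.18).

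*Ccl12*, which codes for a mouse CCR2 ligand, had the largest AC response of the 10 genes in SjSS BMDMs. It was almost silent without treatment, with 36 to 50 counts per library in B6 and 14 to 37 in SjSS. These came to 0.801, 0.751 and 0.817 CPM in B6 and 0.682, 0.414 and 0.544 CPM in SjSS. ACs brought it to 4.19, 3.07 and 4.68 CPM in B6 and to 104, 119 and 108 CPM in SjSS. CpG brought it to 11.03, 13.4 and 12.2 CPM in B6 and to 7.04, 3.83 and 7.56 CPM in SjSS. The treated samples of each strain lay above its controls, and the AC treated SjSS samples lay above all others. The AC response was a log2 fold change of 7.60 (SE 0.23, 195-fold, adjusted p = 2.36e-15, edgeR) in SjSS against 2.32 (SE 0.24, 4.99-fold) in B6, and the interaction of 5.29 (SE 0.39, adjusted p = 3.89e-09, edgeR) was the largest of the 10. The CpG responses were 3.94 (SE 0.22) in B6 and 3.45 (SE 0.25) in SjSS, and their difference of -0.49 had a 95% interval of -1.303 to 0.31.

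*Ccl8*, the fourth gene of the first cluster and in the mouse a ligand of CCR8, differed from its neighbours in that the strains already differed without treatment. It had 16 to 41 counts per library in control B6 and 78 to 185 in control SjSS BMDMs, which came to 0.320, 0.334 and 0.728 CPM in B6 and 3.41, 2.31 and 2.63 CPM in SjSS. With ACs it was at 0.338, 0.397 and 0.579 CPM in B6 and at 9.72, 8.31 and 6.53 CPM in SjSS, and with CpG at 0.262, 0.799 and 0.826 CPM in B6 and at 2.83, 1.83 and 2.92 CPM in SjSS. The SjSS samples lay above the B6 samples in each of the 3 conditions. *Ccl8* was the only one of the 10 genes called between the strains without treatment (log2 fold change 2.59, SE 0.35, 6.03-fold, adjusted p = 3.59e-05, edgeR), where 1.3% of all genes were called higher and 0.716% lower in SjSS. It was also the only one called with CpG (2.03, SE 0.35, adjusted p = 0.000349, edgeR), where 1.82% were called higher and 0.792% lower. It rose with ACs in SjSS by 1.55 (SE 0.29, 2.92-fold, adjusted p = 0.000119, edgeR). In B6 the AC response was -0.09 (95% interval -0.96 to 0.79), and the CpG responses were 0.42 in B6 (-0.43 to 1.26) and -0.14 in SjSS (-0.76 to 0.48). The AC interaction of 1.63 (SE 0.50, adjusted p = 0.0155, edgeR) rested on few counts, and without control B6 sample 3 it was 1.14 with an adjusted p of 0.107.

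*Ccl3* and *Ccl4*, adjacent genes that code for macrophage inflammatory proteins, rose with both treatments in both strains. *Ccl3* was at 38.1, 35.7 and 35.0 CPM in control B6 and 31.0, 36.3 and 28.2 CPM in control SjSS BMDMs. It reached 94.0, 99.6 and 103 CPM with ACs in B6 and 654, 790 and 781 CPM with ACs in SjSS. CpG brought it to 1644, 1507 and 1364 CPM in B6 and to 861, 744 and 1039 CPM in SjSS. CpG treated B6 BMDMs were therefore the highest group for *Ccl3*, and the CpG and AC treated SjSS samples overlapped. The CpG response was 5.37 (SE 0.13, 41.5-fold, adjusted p = 2.97e-16, edgeR) in B6 and 4.79 (SE 0.13, 27.7-fold) in SjSS. The difference of -0.58 (SE 0.16) had an adjusted p of 0.0341 (edgeR) and a size under the fold threshold. The AC response was 1.44 (SE 0.11, 2.72-fold) in B6 and 4.54 (SE 0.13, 23.3-fold) in SjSS, with an interaction of 3.10 (SE 0.16, adjusted p = 5.22e-11, edgeR).

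*Ccl4* was at 20.5, 21.7 and 21.3 CPM in control B6 and 19.3, 26.3 and 17.3 CPM in control SjSS BMDMs. With ACs it was at 108, 118 and 121 CPM in B6 and at 1095, 1284 and 1137 CPM in SjSS, and with CpG at 692, 623 and 546 CPM in B6 and at 436, 376 and 500 CPM in SjSS. The 4 treated groups of *Ccl4* did not overlap one another, with AC treated SjSS BMDMs highest. Its AC response was 2.45 (SE 0.13, 5.46-fold) in B6 and 5.82 (SE 0.15, 56.4-fold, adjusted p = 3.41e-16, edgeR) in SjSS, and the interaction was 3.37 (SE 0.18, adjusted p = 8.91e-11, edgeR). The CpG responses were 4.87 (SE 0.14) in B6 and 4.40 (SE 0.14) in SjSS.

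*Ccl5*, which codes for RANTES, an attractant of T cells and monocytes, was low in both untreated strains, at 2.48, 3.38 and 5.10 CPM in B6 and 4.48, 4.05 and 3.70 CPM in SjSS. ACs brought it to 31.1, 44.3 and 41.1 CPM in B6 and to 621, 606 and 571 CPM in SjSS, and CpG to 149, 164 and 132 CPM in B6 and 113, 79.1 and 106 CPM in SjSS. As for *Ccl4*, the 4 treated groups did not overlap. The AC response was 3.41 (SE 0.19, 10.7-fold) in B6, the largest of the 10 genes in that strain, and 7.20 (SE 0.21, 147-fold, adjusted p = 1.91e-15, edgeR) in SjSS, with an interaction of 3.79 (SE 0.28, adjusted p = 4.07e-09, edgeR). The CpG response was 5.35 (SE 0.20) in B6 and 4.61 (SE 0.20) in SjSS.

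**Figure D2:**
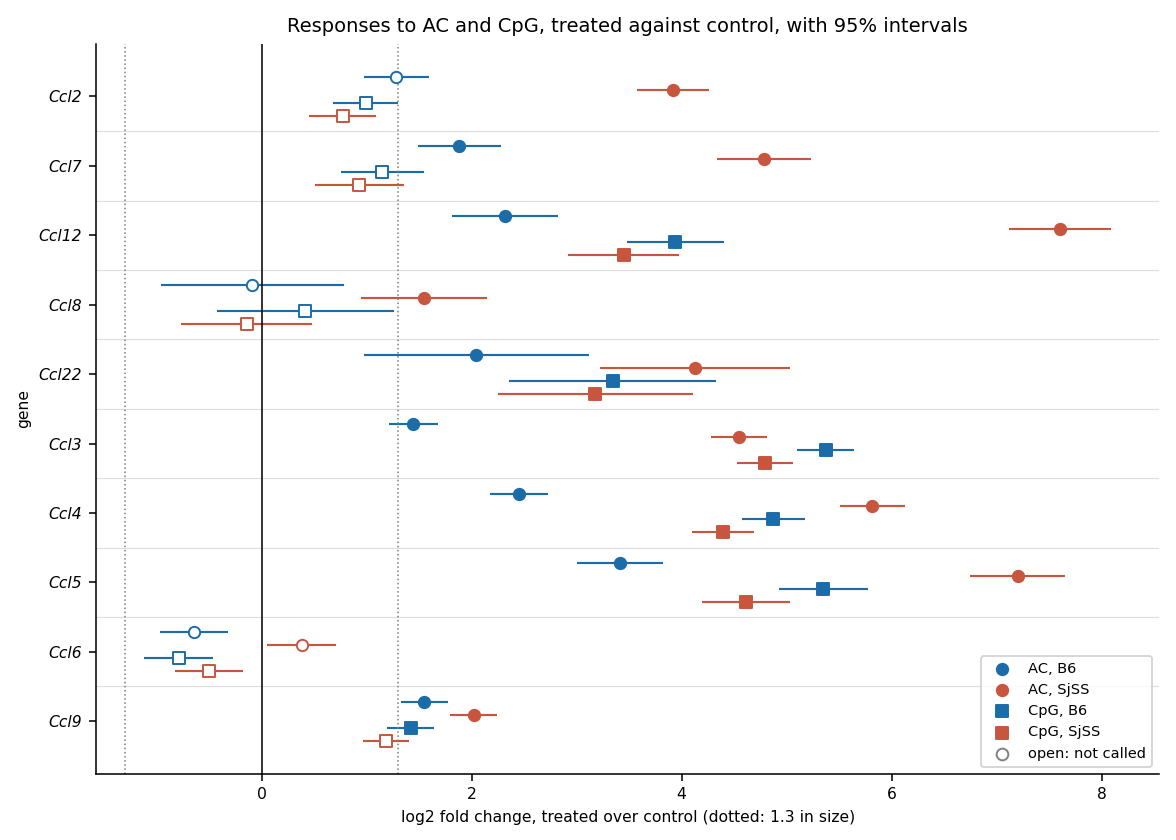
Log2 fold change of treated over control BMDMs with 95% intervals for each gene, AC as circles and CpG as squares, B6 in blue and SjSS in red, with open symbols for changes that were not called and dotted lines at the fold threshold of 1.3. The AC response in SjSS lies to the right of the AC response in B6 for all 10 genes, while the CpG intervals of the 2 strains overlap for all but *Ccl3*.

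*Ccl6* and *Ccl9*, neighbours that both code for ligands of CCR1, had the most RNA per kb of exon of the 10 genes in untreated BMDMs. *Ccl9* rose with ACs in both strains and *Ccl6* was not called in any treatment response. *Ccl6* was at 457, 701 and 665 CPM in control B6 and 832, 787 and 699 CPM in control SjSS. With ACs it was at 315, 412 and 440 CPM in B6 and at 986, 1067 and 963 CPM in SjSS, and with CpG at 262, 386 and 407 CPM in B6 and at 562, 555 and 520 CPM in SjSS. The AC treated samples lay below the controls in B6 and above them in SjSS. The log2 fold changes of -0.64 (SE 0.16, adjusted p = 0.00284, edgeR) in B6 and 0.38 (SE 0.16, adjusted p = 0.0436, edgeR) in SjSS were both under the fold threshold, and the latter ran from 0.31 to 0.44 with adjusted p up to 0.146 when each sample was left out. The interaction was 1.02 (SE 0.22, adjusted p = 0.00116, edgeR), also under the threshold. Between the strains with ACs, *Ccl6* was called higher in SjSS at 1.37 (SE 0.16, 2.59-fold), but at 1.24 without AC treated B6 sample 1. CpG gave -0.79 (SE 0.16) in B6 and -0.50 (SE 0.16) in SjSS.

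*Ccl9* was at 209, 189 and 181 CPM in control B6 and 252, 232 and 188 CPM in control SjSS BMDMs. With ACs it was at 600, 503 and 592 CPM in B6 and at 894, 968 and 857 CPM in SjSS, and with CpG at 592, 453 and 501 CPM in B6 and at 536, 508 and 481 CPM in SjSS. The AC treated B6 samples overlapped the CpG treated B6 samples, and the CpG treated samples of both strains overlapped. *Ccl9* rose with ACs by 1.55 (SE 0.11, 2.93-fold) in B6 and 2.02 (SE 0.11, 4.05-fold) in SjSS, and with CpG by 1.42 (SE 0.11) in B6, while its CpG response in SjSS of 1.18 (SE 0.11, adjusted p = 1.65e-08, edgeR) was under the fold threshold. It was the one gene of the 10 not called between the strains with ACs, at 0.68 (SE 0.10, 1.60-fold, adjusted p = 2.41e-05, edgeR). Of the deposited values of *Ccl9* 94.4% were not whole numbers, as were 77.8% for *Ccl2*, 66.7% for *Ccl6*, 50% for *Ccl5* and 22.2% for *Ccl12*, as the authors' estimation can divide a read among features.

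*Ccl22*, which codes for a ligand of CCR4 on regulatory and helper T cells, had the least RNA per kb of exon of the 10 genes in every group, with 2 to 10 counts per library in the controls and at most 112 in any library. Its CPM were 0.0480, 0.0626 and 0.107 in control B6, 0.0737, 0.0592 and 0.181 in control SjSS, 0.119, 0.360 and 0.446 with ACs in B6 and 1.65, 1.72 and 2.51 with ACs in SjSS. With CpG they were 0.605, 0.825 and 0.848 in B6 and 0.922, 1.04 and 1.096 in SjSS. Each treated group lay above the controls of its strain. The AC response was 2.05 (SE 0.51) in B6 and 4.13 (SE 0.43) in SjSS, and the CpG response 3.34 (SE 0.47) in B6 and 3.18 (SE 0.44) in SjSS. The AC interaction of 2.08 (SE 0.74, adjusted p = 0.0338, edgeR) was lost when only the compared groups were fitted (adjusted p = 0.0565, edgeR) and when any 1 of 6 samples was left out, control B6 samples 2 and 3, AC treated B6 sample 1, control SjSS samples 1 and 2 and AC treated SjSS sample 3, with an interaction of 1.69 to 2.15 and adjusted p of 0.0526 to 0.159 (edgeR).

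Between the strains, 1 of the 10 ligands was called without treatment (*Ccl8*), 9 with ACs and 1 with CpG (*Ccl8*), each higher in SjSS. With ACs all 10 SjSS groups lay above the B6 groups without overlap, where 28.9% of all genes did, and the 9 called stand beside 6.24% of all genes called higher and 2.69% called lower. The median log2 difference over the 10 genes was 2.79 with ACs and 0.07 without treatment. With CpG the SjSS samples lay below the B6 samples without overlap for 6 genes, *Ccl2*, *Ccl3*, *Ccl4*, *Ccl5*, *Ccl7* and *Ccl12*, and above them for 3, *Ccl6*, *Ccl8* and *Ccl22*, beside 16.6% and 17.6% of all genes. The former 6 had log2 differences of -0.50 (*Ccl4*) to -1.19 (*Ccl7*) and adjusted p up to 0.0142 (edgeR), where 9.57% of all genes had an adjusted p under 0.05 in that direction, and none of them passed the fold threshold. Without CpG treated SjSS sample 3, *Ccl7* passed it at -1.32.

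**Figure D3:**
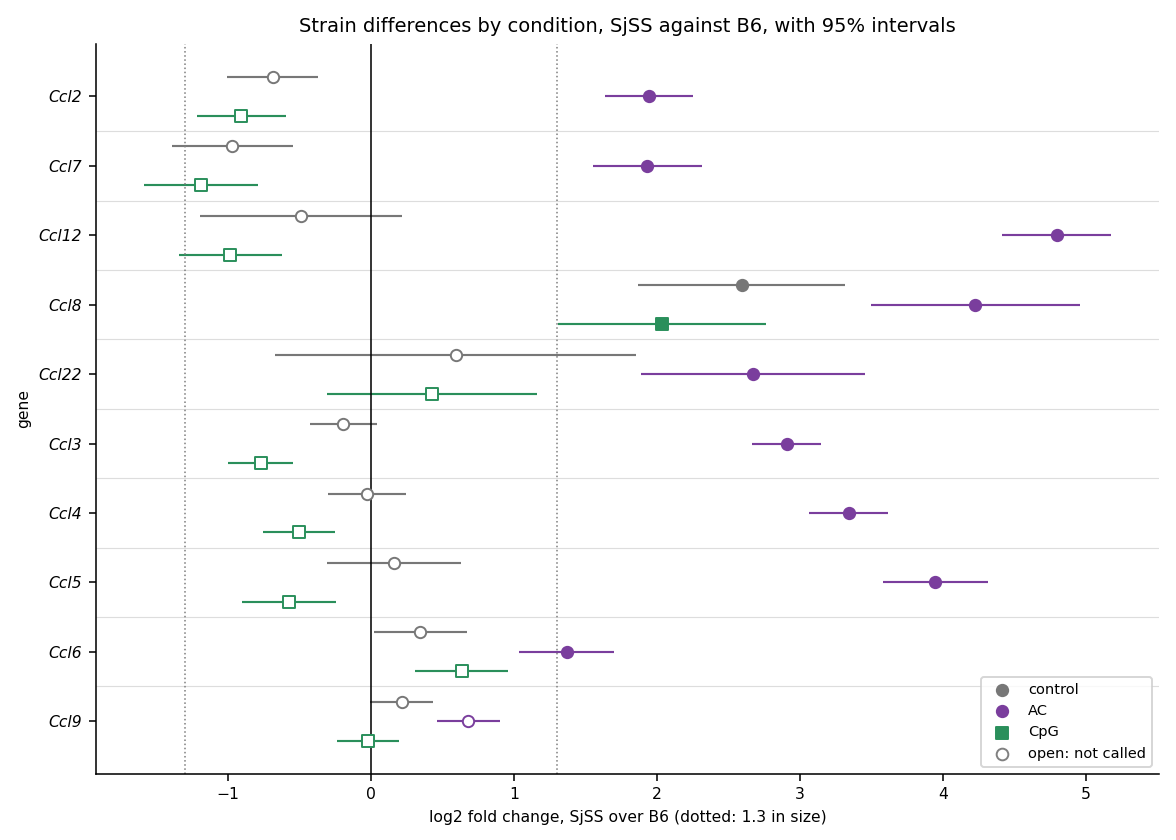
Log2 fold change of SjSS over B6 BMDMs with 95% intervals for each gene, without treatment in grey, with ACs in purple and with CpG as green squares, with open symbols for differences that were not called and dotted lines at the fold threshold of 1.3. With ACs all 10 estimates lie between 0.68 and 4.80, while with CpG 7 of the 10 lie below 0.

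AC and CpG treated samples were also compared directly within each strain. In B6 BMDMs 4 genes were called lower with ACs than with CpG and 0 were called higher, where 3.47% of all genes were called lower and 3.64% higher. The 4 were *Ccl3* (-3.93, SE 0.12), *Ccl4* (-2.42, SE 0.13), *Ccl5* (-1.93, SE 0.16) and *Ccl12* (-1.62, SE 0.18). *Ccl22* was just under the fold threshold (-1.299, SE 0.39, adjusted p = 0.00985, edgeR) and was called under DESeq2, DESeq2's size factors and the replicate block. In SjSS BMDMs 6 genes were called higher with ACs and 0 were called lower, beside 5.38% and 3.8% of all genes. These were *Ccl12* (4.16, SE 0.17), *Ccl7* (3.85, SE 0.20), *Ccl2* (3.14, SE 0.16), *Ccl5* (2.59, SE 0.16), *Ccl8* (1.69, SE 0.29) and *Ccl4* (1.42, SE 0.12), while *Ccl3* was at -0.25 (95% interval -0.47 to -0.02, adjusted p = 0.0592, edgeR). All 4 genes of the first cluster were thus called higher with ACs than with CpG in SjSS, and 2 of the 5 genes of the second. In the CpG responses, 1 of 4 genes of the first cluster was called in each strain, *Ccl12*, and of the second 4 of 5 in B6 and 3 of 5 in SjSS. Of all genes 5.86% and 4.81% were called higher in these responses. *Ccl2* and *Ccl7* of the first cluster rose with CpG under the fold threshold. Their values were 0.99 and 1.15 in B6 and 0.77 and 0.93 in SjSS (adjusted p at most 0.000695, edgeR).

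Per kb of exon, on the scale of CPM divided by merged exon length, *Ccl6* made up most of the RNA of the 10 genes in untreated BMDMs. It was at 339 ± 73.3 CPM per kb in control B6 and 430 ± 37.6 in control SjSS, which was 62.0% ± 5.46 and 69.5% ± 2.07 of the summed CPM per kb. *Ccl9* followed at 63.3 ± 4.74 and 73.5 ± 10.6 CPM per kb, then *Ccl3* at 47.4 ± 2.14 and 41.6 ± 5.35, and *Ccl22* was last at 0.0311 ± 0.0131 and 0.0450 ± 0.0287. With CpG the order changed to *Ccl3*, *Ccl4* and *Ccl6* in both strains, with *Ccl3* at 1965 ± 183 CPM per kb in B6 and 1151 ± 194 in SjSS, 55.1% ± 1.07 and 46.6% ± 2.30 of the sum. With ACs *Ccl4* led in SjSS at 1776 ± 150 CPM per kb, 35.0% ± 0.716 of the sum, before *Ccl3* at 968 ± 99.5, *Ccl5* at 624 ± 26.4 and *Ccl6* at 560 ± 30.5, and these neighbours in the order did not overlap. In AC treated B6 BMDMs *Ccl6*, *Ccl9* and *Ccl4* came first at 217 ± 36.5, 186 ± 17.7 and 175 ± 10.6 CPM per kb, each overlapping the next. The share of *Ccl12* in the sum was 4.05% ± 0.0431 in AC treated SjSS BMDMs and at most 0.899% in any sample of the other 5 groups. Counts of the 10 genes together took 0.0989% ± 0.0123 of all counts in control B6, 0.140% ± 0.00871 with ACs and 0.311% ± 0.0138 with CpG, and 0.121% ± 0.0102, 0.429% ± 0.0254 and 0.258% ± 0.0187 in the same groups of SjSS.

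**Figure D4:**
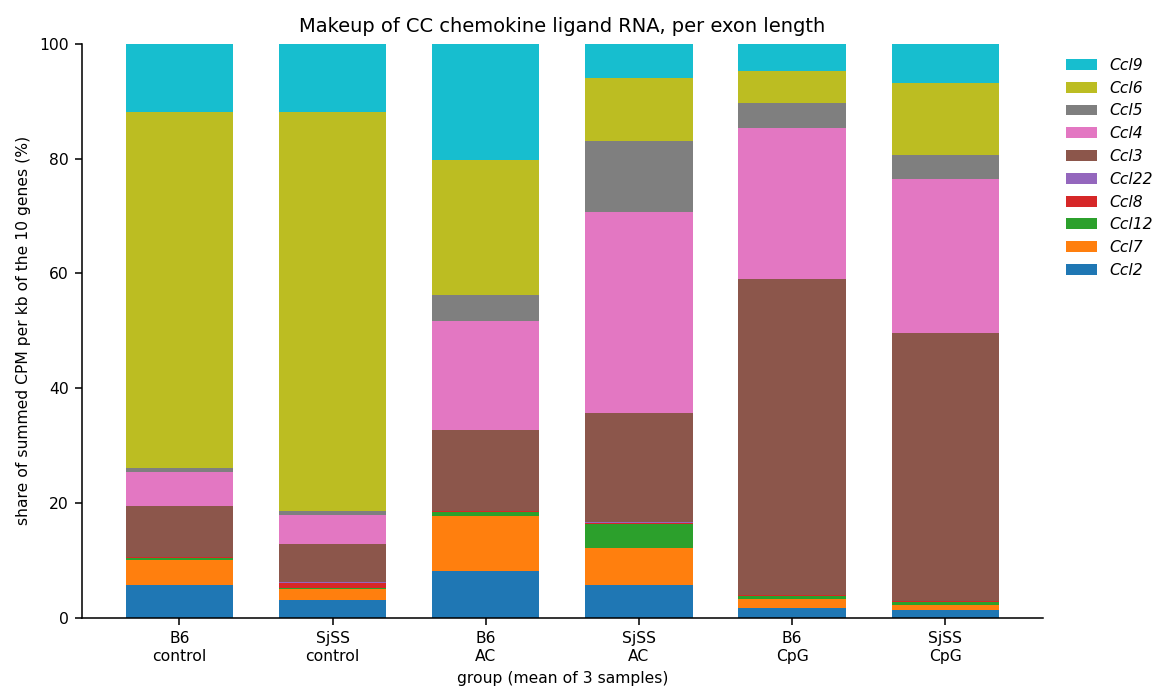
Mean share of each gene in the summed CPM per kb of exon of the 10 genes, as stacked bars to 100% for the 6 groups of 3 samples. *Ccl6* fills 62.0% and 69.5% of the control bars, *Ccl3* fills 55.1% and 46.6% of the CpG bars, and *Ccl4* is the widest band with ACs in SjSS at 35.0%.

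The ratios of neighbouring genes were chosen after their values were seen. The ratio of *Ccl4* to *Ccl3* counts was 0.539 to 0.609 in control B6 and 0.613 to 0.723 in control SjSS BMDMs. It was 1.15 to 1.19 with ACs in B6 and 1.46 to 1.68 with ACs in SjSS, and was 0.400 to 0.421 and 0.481 to 0.506 with CpG. In both strains every AC treated sample was thus above, and every CpG treated sample below, the controls. The ratio of *Ccl6* to *Ccl9* counts was 2.19 to 3.70 and 3.31 to 3.71 in the controls of B6 and SjSS. With ACs it was 0.525 to 0.820 in B6 and 1.103 to 1.12 in SjSS, and with CpG 0.442 to 0.851 and 1.05 to 1.09. With 3 samples a group an exact permutation test cannot go below p = 0.1, so these ratios are given as ranges.

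**Figure D5:**
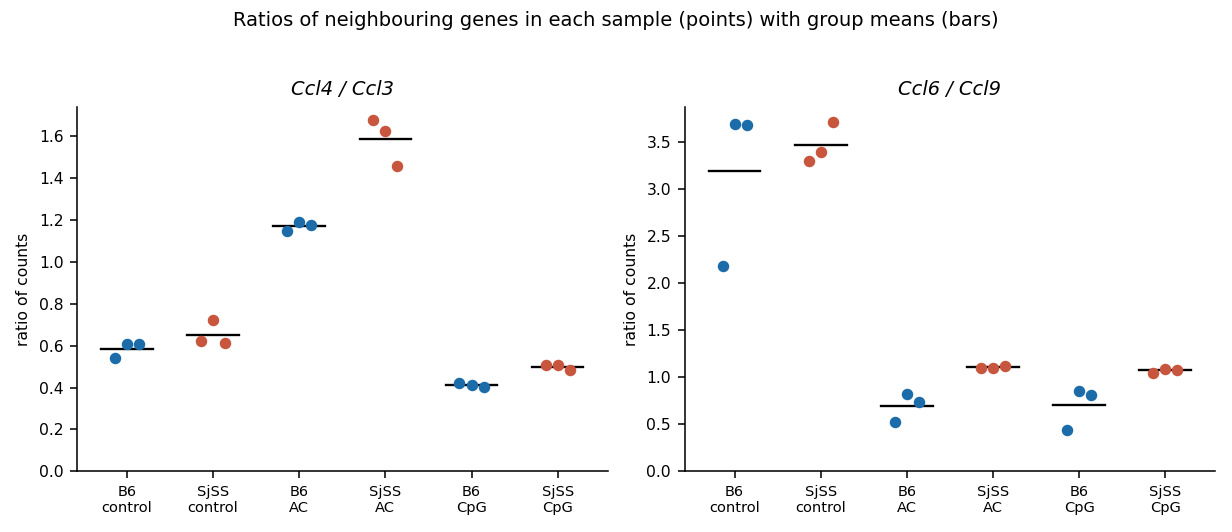
Ratio of counts of *Ccl4* to *Ccl3* and of *Ccl6* to *Ccl9* in each BMDM sample (points) with group means (bars), on axes that start at 0, B6 in blue and SjSS in red. The *Ccl4* to *Ccl3* ratio lies between 1.15 and 1.68 in the 6 AC treated samples and between 0.400 and 0.723 in the other 12.

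The receptors and known inducers of these ligands were taken from lists. Of 14 CC receptors and decoy receptors 8 could be tested. With ACs 2 were called higher in each strain, and 3 lower in B6 (*Ccr1*, *Ccr2* and *Ccr7*) and 1 lower in SjSS (*Ccr2*). Of all genes 2.43% were called higher and 2.04% lower with ACs in B6, and 7.09% and 5.83% in SjSS. The fall of *Ccr7* rested on few counts, 3 to 22 per library in control B6 and 0 to 2 with ACs. *Ccr2*, the receptor of CCL2, CCL7 and CCL12, fell with ACs from 10.6 ± 1.1 to 2.44 ± 0.955 CPM in B6 and from 20.7 ± 3.01 to 5.53 ± 0.993 CPM in SjSS (log2 fold changes -2.13 and -1.91), and it fell with CpG in both strains (-1.795 and -2.15). *Ccr1*, a receptor of CCL3, CCL5, CCL6 and CCL9, fell in B6 with ACs (-1.35) and with CpG (-1.52), while the SjSS values of -0.62 and -1.08 were under the fold threshold. *Ccrl2*, an atypical receptor that holds the leukocyte attractant chemerin at the cell surface, was at 13.4 ± 3.16 and 16.96 ± 4.75 CPM in control B6 and SjSS BMDMs. With ACs it rose to 44.0 ± 5.19 CPM in B6 and 447 ± 16.9 CPM in SjSS, with an interaction of 3.02 (SE 0.25, adjusted p = 1.68e-08, edgeR).

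Of 20 signals and factors known to induce CC chemokines 19 could be tested. With ACs 5 were called higher in B6 and 13 in SjSS, with CpG 10 in B6 and 7 in SjSS, and 0 were called lower in these 4 responses. Of all genes 2.43% and 7.09% were called higher with ACs in B6 and SjSS, and 5.86% and 4.81% with CpG. The shares called lower were 2.04% and 5.83% with ACs and 6.88% and 4.45% with CpG. *Tnf*, an inflammatory cytokine, was at 46.0 ± 0.492, 163 ± 18.04 and 956 ± 90.2 CPM in control, AC treated and CpG treated B6 BMDMs and 20.6 ± 5.77, 771 ± 57.7 and 615 ± 37.8 CPM in SjSS. As for *Ccl3*, the CpG treated samples were its highest in B6, but in SjSS its AC treated samples lay above the CpG treated ones. *Irf1*, a factor of interferon responses, was at 73.0 ± 3.70, 128 ± 2.72 and 92.9 ± 13.1 CPM in B6 and 78.8 ± 9.996, 1371 ± 84.0 and 85.3 ± 10.1 CPM in SjSS, and of these 4 responses was called in that to ACs in SjSS, with an interaction of 3.31. *Ifnb1*, which codes for interferon beta, was at 0 to 0.303 CPM in 15 libraries and at 4.85 to 5.66 CPM in the 3 AC treated SjSS libraries. It was called higher with ACs in both strains, in B6 at 0.0993 to 0.303 CPM (5 to 16 counts per library). Between the strains with ACs *Ifnb1* was called higher in SjSS, but it was not called in the AC interaction. Of the 12 other CC ligands on the list 5 were in the table and 3 could be tested, and only *Ccl24*, an attractant of eosinophils, was called in any response, lower with ACs in B6 and with CpG in both strains, at levels of at most 0.639 CPM in any sample.

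For each of the 10 genes the most similar profiles among all tested genes were found by the Pearson correlation of log2 CPM over the 18 libraries, which share the same 6 groups, so that these values are descriptions. *Ccl5* was most like *Gadd45b* (0.996), *Helz2* and *Slc2a6*, *Ccl4* most like *Daam1* and *Tnfaip3* (both 0.994), and *Ccl3* most like *Kremen1* (0.994), *Pik3ap1* and *Tpm4*. *Sdc4* was first for both *Ccl2* (0.973) and *Ccl7* (0.977), with *Tiparp* among the first 3 of each. *Ccl12* was most like *Ggct* (0.989) and *Gbp5* (0.989), *Ccl22* most like *Ms4a4c* (0.975) and *Fgl2* (0.975), and *Ccl9* most like *Srsf7* (0.977) and *Src* (0.970). *Ccl8* was most like *Gm2427* (0.971), *Gm15433* and *Capn5*, and *Ccl6* had the lowest best match, *Pfdn5* at 0.954. Among the 10 genes themselves, *Ccl6* had correlations of -0.191 with *Ccl3* and -0.029 with its neighbour *Ccl9*, and 0.809 with *Ccl8*.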

How the data were processed

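BMDM RNA was sequenced by the authors in 18 samples, aligned with STAR to mm10 and quantified with Partek's expectation-maximization step, per the labels and the study's methods. The submitters' processing notes also name DESeq2 (3.13), and the versions of STAR and Partek are not given in the sources used here. The deposited table holds estimated counts per gene, of which 41.1% are not whole numbers (tolerance 1e-06), and they were rounded to whole numbers here. Coordinates are those of GENCODE M21 on mm10, where all 10 genes have the deposited start and the deposited stop is 1 base higher than the annotated end.

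Genes were filtered with filterByExpr and scaled by TMM, and 15789 genes were fitted in all 18 samples with edgeR's quasi-likelihood test (edgeR 4.0.16, R 4.3.3) as 6 groups of 3 with 11 contrasts. Calls required an adjusted p (Benjamini-Hochberg over all genes tested) below 0.05 with a log2 fold change beyond 1.3 in either direction. The SE is the log2 fold change divided by the square root of its F statistic, intervals are 95%, and the code was tested on simulated data. Libraries held 30688336 to 57139662 counts, and intervals and low counts reflect counting error and the spread between samples. No 2 samples of the same group agreed within sampling noise.

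The ligands were named by gene symbol, each described in every sample, and the 3 genes most correlated with each (log2 CPM, prior count 2) were found. The genes and the lists of receptors, inducers and cell type markers were chosen with earlier results of these data known. Alternatives were DESeq2 (1.42.0), its size factors, other low count filters, other fold thresholds, fits of the compared groups alone, a replicate block and leaving out each sample.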

Additional observations from a re-analysis of the deposited data

Results flagged for a closer look

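For 8 of the 10 CC chemokine ligands the response to ACs was called different between the strains by the test of the interaction itself (edgeR's quasi-likelihood test). Each had the larger value in SjSS BMDMs, beside 4.76% of all genes called higher and 2.77% called lower. The differences in log2 fold change were 5.29 for *Ccl12*, 3.79 for *Ccl5*, 3.37 for *Ccl4* and 3.10 for *Ccl3*. They were 2.90 for *Ccl7*, 2.63 for *Ccl2*, 2.08 for *Ccl22* and 1.63 for *Ccl8*, and the last 2 rested on the fewest counts. The call of *Ccl22* was lost when any of several samples was left out and when only the compared groups were fitted. That of *Ccl8* was lost without control B6 sample 3.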

How the results depend on the processing

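The numbers of CC chemokine ligands called changed mainly with the fold threshold. With no fold threshold, 1 gene was called lower with ACs in B6 (18.3% of all genes) and 1 lower with CpG in B6 (29.8%). With CpG in SjSS 8 were then called higher (27.8% of all genes) and 1 lower (26.4%). Between the strains 2 were then lower without treatment (10.6%), and with CpG 2 were higher (10.2%) and 6 lower (9.57%). In the CpG interaction 1 was lower (2.62%), and 1 was higher with ACs than with CpG in B6 (23.7%). At a log2 fold change over 2, 4 were called higher with ACs in B6 and 2 were lower with ACs than with CpG in B6, beside 1.06% and 1.58% of all genes. Between the strains with ACs 6 were then called higher in place of 9, beside 3.00% of all genes. In SjSS 4 in place of 6 were higher with ACs than with CpG, beside 2.47%. The AC response in SjSS gave 8 (4.26% of all genes), the AC interaction 7 (2.22%) and the CpG response in B6 5 (3.08%). When each sample was left out, the counts called ran from 7 to 8 with ACs in B6, 8 to 9 between the strains with ACs, 6 to 8 in the AC interaction, 4 to 5 lower with ACs than with CpG in B6, and 0 to 1 lower in SjSS with CpG.

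Leaving out samples turned the sign of 9 uncalled log2 values. These ran from -0.32 to 0.41 for *Ccl8* with ACs in B6 and -0.26 to 0.0395 for *Ccl8* with CpG in SjSS. Between untreated strains they ran from -0.21 to 0.10 for *Ccl4*, -0.0668 to 0.49 for *Ccl5* and -0.0838 to 0.98 for *Ccl22*, and with CpG from -0.10 to 0.0916 for *Ccl9*. In the CpG interaction they ran from -0.55 to 0.51 for *Ccl22* and -0.44 to 0.11 for *Ccl7*, and between AC and CpG in B6 from -0.0270 to 0.28 for *Ccl6*. The cause was not tested.

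Same-numbered samples of 1 strain had correlated deviations of 0.0198 to 0.264 over 18 pairs (median 0.0901), and 16 of 18 samples correlated best with their own number, but no source says that a number marks a shared mouse. With the replicate block 5 genes were lower with ACs than with CpG in B6 in place of 4, since *Ccl22* passed at -1.34 (-1.37 with the block within strain, which was run for comparisons within a strain and interactions), and no other call changed. DESeq2 and its size factors each added the same call and no other, at -1.33. Fits of the compared groups alone gave 6 genes with ACs in B6 and 7 in the AC interaction, and gave no value for *Ccl22* with ACs in B6 or between untreated strains, where it did not pass the filter. Neither other filter on low counts changed a call. Depth limits *Ccl22* and *Ccl8*, with 2 to 41 counts in the untreated B6 libraries and the *Ccl22* of untreated SjSS. The fold changes of *Ccl12* also start from few counts, 36 to 50 per untreated B6 library and 14 to 37 per untreated SjSS library.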
